A study of Mus musculus with 6 samples.

Results

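Alpha and beta defensins are small cationic antimicrobial peptides held together by cysteine pairs. The genes described here are the 70 rows of the series table whose symbol is Defa or Defb followed by a number alone, out of 51810 genes in that table. They comprise 28 alpha and 42 beta defensin genes. The rule reads the symbol and no measured value.

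The data were mRNA sequencing counts of mature medullary thymic epithelial cells, labelled mTEChi, from mice aged 4 to 5 weeks. The WT group held 3 libraries from mice with an intact Trp53 gene and no Cre, and the cKO group held 3 libraries from mice in which Trp53 had been deleted conditionally, the gene of the transcription factor p53. Each library came from 75000 sorted cells that carried EpCAM. The labels name neither the Cre driver nor the mice behind each library, so p-values measure the spread between these libraries, which may be technical in part.

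In mice, alpha defensins are made mainly by Paneth cells at the base of the small intestinal crypts, which store them as inactive precursors that the protease Mmp7 cuts. Beta defensins are made by many epithelia, including skin, mouth and airway, and a large group of them is expressed in the epididymis and testis. Medullary thymic epithelial cells transcribe many such tissue-restricted genes, in part under the regulator Aire, and display the products to developing T cells.

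Library totals lay between 45457892 and 50128045 counts. Trp53 stood at 116, 102 and 109 CPM (counts scaled to the library size, here after TMM) in the WT libraries, in the order of their numbers, and at 8.16, 7.85 and 7.38 in the cKO libraries, so each library matched its label. All 15 markers of mature medullary epithelium passed the low-count filter, among them Aire at 1306 ± 108 CPM in WT and 1047 ± 195 in cKO (SD, n = 3 each) and the class II MHC gene H2-Aa at 8744 ± 616 and 8615 ± 566. Mouse neutrophils do not make alpha defensins, but other blood cells can enter a sort. The 12 myeloid and neutrophil markers summed to between 210 and 261 CPM in WT and between 186 and 260 in cKO, with the neutrophil gene Ly6g at 49.3 ± 6.13 and 44.2 ± 10.6 and Elane, a serine protease of immature neutrophils, at 0.0985 ± 0.0612 and 0.0901 ± 0.0284. The part of such cells in the defensin counts was not tested.

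The sequences show what sets the members apart. Below are coding stretches from the first cysteine codon of the defensin motif to the stop codon, 5′ to 3′, with cysteine codons in capitals, from GENCODE M21 transcripts. They cover the 11 defensins of highest mean level, with Defa42 standing also for Defa43, whose coding sequence is identical. Defa24 is the most abundant gene of the largest alpha group.
Defa21: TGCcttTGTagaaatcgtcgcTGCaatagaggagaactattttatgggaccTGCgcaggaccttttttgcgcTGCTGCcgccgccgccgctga
Defa22: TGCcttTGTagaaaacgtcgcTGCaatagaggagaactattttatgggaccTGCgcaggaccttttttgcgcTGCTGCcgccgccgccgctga
Defa24: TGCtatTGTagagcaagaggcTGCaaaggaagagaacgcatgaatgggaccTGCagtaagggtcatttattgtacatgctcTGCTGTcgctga
Defa38: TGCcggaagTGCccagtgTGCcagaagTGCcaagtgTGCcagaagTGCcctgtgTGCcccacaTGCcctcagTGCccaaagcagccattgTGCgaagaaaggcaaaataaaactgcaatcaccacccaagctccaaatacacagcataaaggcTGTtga
Defa42: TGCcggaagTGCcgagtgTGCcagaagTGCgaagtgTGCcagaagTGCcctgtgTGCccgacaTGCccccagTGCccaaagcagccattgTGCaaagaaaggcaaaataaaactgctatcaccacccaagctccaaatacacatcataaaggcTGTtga
Defb6: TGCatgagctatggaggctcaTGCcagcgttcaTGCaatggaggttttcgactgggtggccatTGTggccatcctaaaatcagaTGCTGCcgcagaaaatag
Defb3: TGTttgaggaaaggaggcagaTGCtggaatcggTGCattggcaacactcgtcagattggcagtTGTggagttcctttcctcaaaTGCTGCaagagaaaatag
Defb1: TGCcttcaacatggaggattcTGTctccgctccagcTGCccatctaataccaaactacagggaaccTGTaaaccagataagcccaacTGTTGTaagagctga
Defb19: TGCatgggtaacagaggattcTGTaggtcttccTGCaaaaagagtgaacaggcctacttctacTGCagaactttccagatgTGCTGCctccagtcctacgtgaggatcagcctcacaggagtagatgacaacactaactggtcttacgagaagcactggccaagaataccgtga
Defb25: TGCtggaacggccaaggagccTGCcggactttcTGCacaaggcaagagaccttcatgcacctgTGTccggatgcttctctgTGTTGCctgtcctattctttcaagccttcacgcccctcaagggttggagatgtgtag

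The order of the cysteine codons divides the alpha defensins into groups, which were drawn after the levels had been seen. In 14 genes, Defa24 among them, the 6 cysteine codons of the motif are parted by 1, 4, 9, 9 and 0 codons. A second group of 6 genes, which holds Defa21 and Defa22, has 1, 4, 9, 6 and 0. The third group, Defa29, Defa38, Defa39, Defa42 and Defa43, has a longer coding sequence of 351 bases with 11 cysteine codons in a repeat. Such repeats are known from the cryptdin-related sequence peptides of mouse Paneth cells. The 3 others, Defa25, Defa28 and Defa41, have 7 cysteine codons each, and the last 6 of them have neither order. In Defa41 a TGC stands where its near copy Defa5, of the first group, has cgc. This further cysteine codon shifts the 6 that were read, so the place of Defa41 outside that group depends on the reading. Among beta defensins, spacing was also read from the last 6 cysteine codons. The commonest is 6, 3, 9, 5 and 0 codons, found in 12 genes including Defb19 and Defb25. Next is 6, 4, 9, 6 and 0, found in 9 genes including Defb1. Defb15, Defb34 and Defb28 show 3, 9, 5 and 0 before a further cysteine codon and are not among the 12, so these counts depend on the reading. Defb6 and Defb3 belong to 5 genes with 6, 3, 9, 6 and 0.

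Many alpha defensins have near copies among the alpha defensins, and beta defensins are less alike. Identity of coding sequences went down to 61.9% between alpha genes and up to 91.1% between beta genes. The median identity of coding sequences over pairs was 83.0% among alpha defensins and 48.2% among beta defensins, and 50 of 378 alpha pairs and 0 of 861 beta pairs reached 95%. For the median alpha gene, 60.3% of the 100-base words of its transcripts also occurred in another gene, and in 5 genes all of them did. Of the 42 beta genes, 39 shared no such word with any gene. Defa42 shared all of its words of 50, 100 and 150 bases with Defa43, and their coding sequences were identical.

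Defa42 had 149, 166 and 203 counts in WT and 91, 130 and 179 in cKO, and Defa43 had 159, 195 and 216 and 95, 111 and 187. The counts were made without the option that takes reads with several alignments, yet both genes held reads in every library at like numbers. How reads of identical stretches were placed cannot be seen in the files, so an alpha defensin count is uncertain as a value of its own gene. The same holds for Defa2 with Defa33, Defa20 with Defa32, Defa23 with Defa31, Defa36 with Defa37, Defa3 with Defa17, and Defa5 with Defa34, which shared between 74.5% and 100% of their 100-base words with the gene named beside them. Among beta defensins, Defb15 was uncertain for another reason: 58.0% of its exon bases overlap Gm36879 on the opposite strand, and counting ignored strand.

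**Figure D1:**
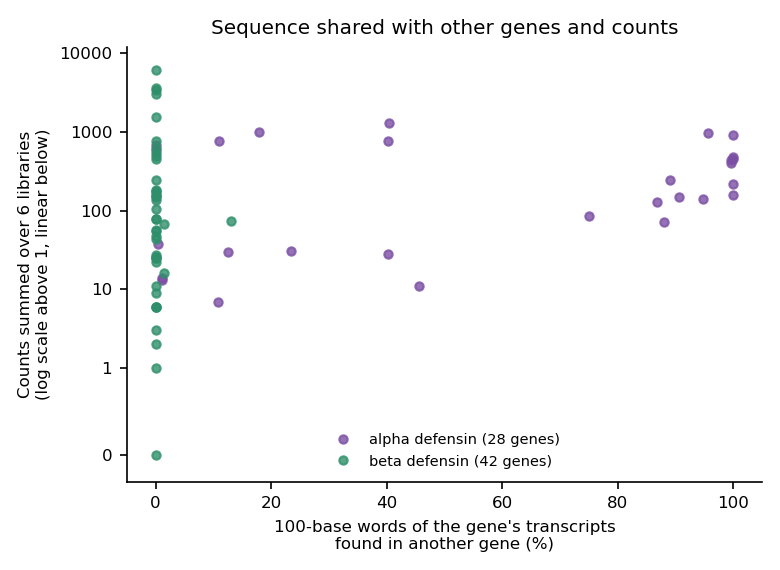
Each point is a defensin gene, with the share of its 100-base transcript words found in another gene (x axis, percent) against its counts summed over 6 libraries (y axis, log scale above 1). Alpha defensins spread from 0 to 100% shared, and 39 of the 42 beta defensins sit at 0%, including those with the most counts.

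Promoters were found in the RefSeq table (GRCm38.p6) for 45 of the 70 genes, 16 alpha and 29 beta. They were searched on both strands, from 250 bases before to 50 after the start, for the TATA box letters TATAAA, the TCF core letters TCAAAG, through which Wnt signalling acts on Paneth cell genes, and the AP-1 letters TGANTCA. No 2 matches overlap in the stretches shown. TATAAA stood in 15 of 16 alpha promoters (93.8%) and 5 of 29 beta promoters (17.2%), against 13.6% of all 32851 promoters. TCAAAG stood in 13 alpha promoters (81.2%) and 8 beta promoters (27.6%), against 16.0% of all. TGANTCA stood in 3 alpha and 2 beta promoters (18.8% and 6.90%), against 7.81% of all. The 3 alpha matches, in the near copies Defa2, Defa20 and Defa32, begin 31, 31 and 33 bases after the start and not before it. Alpha promoters also resemble each other, with a median identity of 71.8% over pairs, so their matches are not separate events. The 150 bases before the start of the most abundant alpha and beta defensin are shown with the matches in capitals, Defa21 at chr8:21025395-21025544 and Defb6 at chr8:19225328-19225477, both on the plus strand.
Defa21: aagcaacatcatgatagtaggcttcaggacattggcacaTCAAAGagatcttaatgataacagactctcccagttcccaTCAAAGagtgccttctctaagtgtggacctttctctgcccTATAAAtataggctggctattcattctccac
Defb6: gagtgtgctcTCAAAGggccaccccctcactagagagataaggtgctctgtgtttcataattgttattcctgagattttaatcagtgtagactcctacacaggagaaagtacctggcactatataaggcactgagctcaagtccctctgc
In Defa21 the TATAAA match begins 31 bases before the start and the TCAAAG matches 111 and 71 bases before it. In Defb6 the sole match is TCAAAG, 140 bases before the start, and the letters TATATAAG nearer the start do not count as TATAAA.

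The genes lie in 5 clusters, parted by gaps of 1 Mb or more (coordinates in mm10, as in the count files). Chromosome 8 holds 2 of them. The first, 18974940 to 19497775, has 14 beta genes and 26.9% of all defensin counts. The second, 20892669 to 21948850, has all 28 alpha genes with 10 beta genes and 43.2% of the counts. Chromosome 2, 152459055 to 152623053, has 11 beta genes, many of them known from the epididymis and testis, and 18.6% of the counts, and chromosome 14, 62977524 to 63058149, has 5 and 11.04%. Chromosome 1, 18236473 to 18265138, has 2 beta genes and 0.244%.

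**Figure D2:**
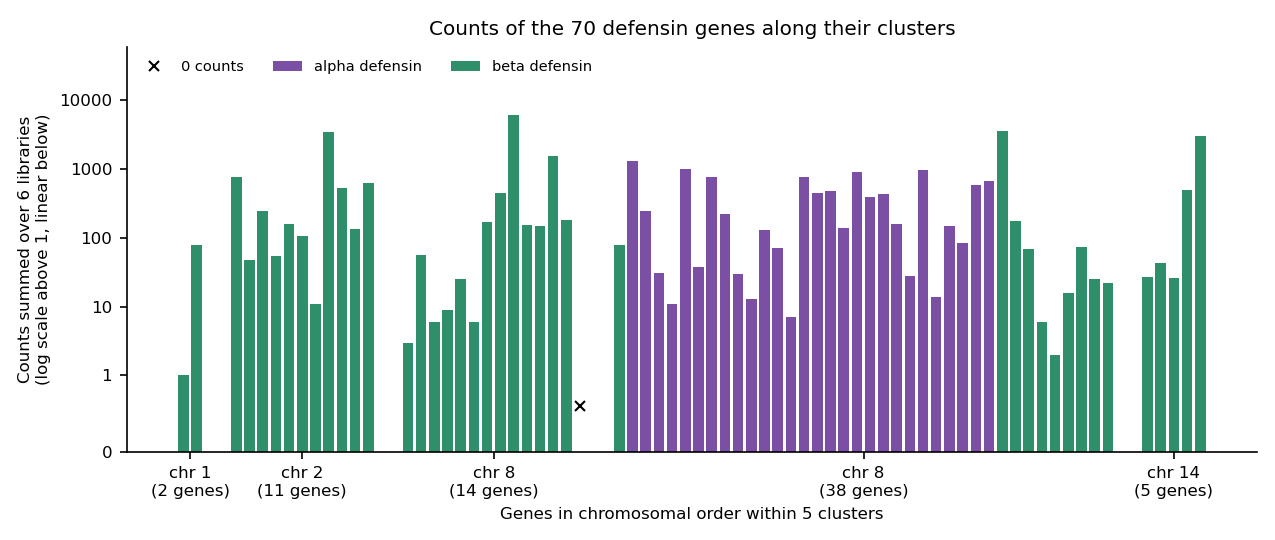
Bars give the counts of each defensin gene summed over 6 libraries (y axis, log scale above 1), in chromosomal order within the 5 clusters, with alpha genes in purple and beta genes in green. High and low genes lie side by side in every cluster of more than 2 genes, and the cross marks the gene with 0 counts, Defb7.

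Nearly every defensin gene gave reads. A gene was called detected in a library at 3 counts or more, a floor of 0.0598 to 0.0660 CPM of the library total that covers counting error only. By that measure 57, 56 and 58 of the 70 genes passed in the WT libraries, in the order of their numbers, and 51, 52 and 56 in the cKO libraries. The groups touch at 56. Over all genes of the table the shares were 63.3% to 63.4% in WT and 62.0% to 64.5% in cKO, with cKO libraries 1 and 2 the lowest there too. In all, 66 genes were detected in at least 1 library, among them all 28 alpha genes, and 45 genes (22 alpha, 23 beta) in all 6.

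The 4 genes detected in no library were all beta defensins. Defb7 was at 0 in each library, Defb18 had 1 count in all, Defb9 had 2 and Defb40 had 3. The genes detected in WT alone were Defb12, Defb21, Defb38, Defb39, Defb43, Defb10 and Defa27, and those detected in cKO alone were Defb48 and Defb11. How many of all genes were detected in 1 group alone was not counted, so these lists do not set the defensins apart. These genes were named after their values were seen, and each had at most 27 counts over the 6 libraries. Most were present in only some libraries of their group, whereas Defb12 was detected in all 3 WT libraries with 3, 9 and 11 counts and had 2, 0 and 0 in cKO, and Defb48 had 1, 2 and 1 in WT and 13, 4 and 6 in cKO.

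A few beta defensins held a large part of the reads. The 4 genes of highest count, Defb6, Defb1, Defb19 and Defb42, took 49.1% of the 32840 defensin counts. All beta defensins took 69.1% and alpha defensins 30.9%. Levels between genes are given as the TPM deposited by the authors, which corrects for gene length. Defb6, expressed in skeletal muscle, oesophagus and tongue, was at 154, 181 and 154 TPM in WT and 115, 141 and 152 in cKO. Its mean of 149 lay at the 98.2 percentile of all genes of the table, and it was above every other defensin in every library. Defb19, a beta defensin of the testis and epididymis, followed with 61.1, 89.7 and 79.2 TPM in WT and 53.7, 45.2 and 82.4 in cKO. For both genes the lowest values belonged to cKO libraries 1 and 2.

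Defb3, an inducible defensin of airway and other mucosal surfaces, was at 44.7, 47.5 and 48.9 TPM in WT and 36.2, 34.0 and 54.7 in cKO. Defb1, the beta defensin that many epithelia make without stimulation, was at 29.5, 27.2 and 30.1 TPM in WT and 31.4, 33.7 and 43.5 in cKO. Every cKO value of Defb1 was above every WT value, while those of Defb3 enclosed the WT values.

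Defb6 and Defb19 were the only neighbours in the order of levels, among the 31 genes of highest mean TPM, whose ranges over the 6 libraries did not overlap. Defb19 exceeded Defb3 and Defb3 exceeded Defb1 in 6 of 6 libraries, although their ranges over libraries overlapped. Below Defb1 the order was not fixed: Defa21 (mean 24.6 TPM), Defa38 (22.4), Defb25 (16.8), Defa43 (15.03), Defa42 (14.9), Defa22 (14.4), Defa24 (12.8) and Defa29 (11.97) overlapped with their neighbours.

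Among the alpha defensins, the repeat group took 41.8% of alpha counts with 5 genes, the group of Defa21 37.9% with 6 genes, and the group of Defa24 19.5% with 14 genes. Defa21 was at 21.7, 30.9 and 30.5 TPM in WT and 22.4, 14.9 and 27.5 in cKO. Defa38 was at 17.1, 28.9 and 26.4 in WT and 24.4, 15.4 and 21.998 in cKO. Their group ranges overlapped, with cKO library 2 lowest for both.

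Defa22 was at 13.95, 16.2 and 17.1 TPM in WT and 11.9, 8.09 and 19.2 in cKO. Defa24 was at 14.2, 15.9 and 14.995 in WT and 6.63, 8.81 and 16.1 in cKO. Defa29 was at 9.52, 16.4 and 14.1 TPM in WT and 8.54, 8.86 and 14.4 in cKO. In each of these 3 genes cKO libraries 1 and 2 lay below all WT libraries and cKO library 3 did not.

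Defa39, the remaining repeat gene, had a mean of 9.38 TPM, and the near copies Defa33, Defa2, Defa32 and Defa20 had 9.01, 8.31, 8.15 and 7.36. The rest of the tested alpha genes were lower: Defa23 4.62 TPM, Defa31 4.60, Defa37 3.11, Defa17 2.96, Defa36 2.62, Defa3 2.49, Defa34 1.78 and Defa5 1.498. The 8 alpha genes that did not pass the low-count filter had 7 to 38 counts over the 6 libraries.

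In the beta cluster of chromosome 8 with Defb6 and Defb3, the inducible genes Defb4 and Defb14 had means of 7.91 and 6.60 TPM. Defb46, Defb5 and Defb8 had 7.05, 5.68 and 5.06, and the other 7 genes of that cluster did not pass the filter. On chromosome 2, Defb23 had a mean of 9.79 TPM, Defb45 7.13, Defb28 3.10, Defb22 3.06, Defb36 2.32, Defb29 1.79, Defb26 0.792 and Defb20 0.549. Defb42, an epididymal gene on chromosome 14, had 9.95 TPM and its neighbour Defb30 2.997. Defb50, Defb15 and Defb33, which lie with the alpha genes, had 3.76, 1.69 and 1.45, and Defb41 on chromosome 1 had 1.04. The 18 beta genes that did not pass the filter had 0 to 68 counts in all, and the 26 genes of both families below it held 1.60% of the defensin counts.

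**Figure D3:**
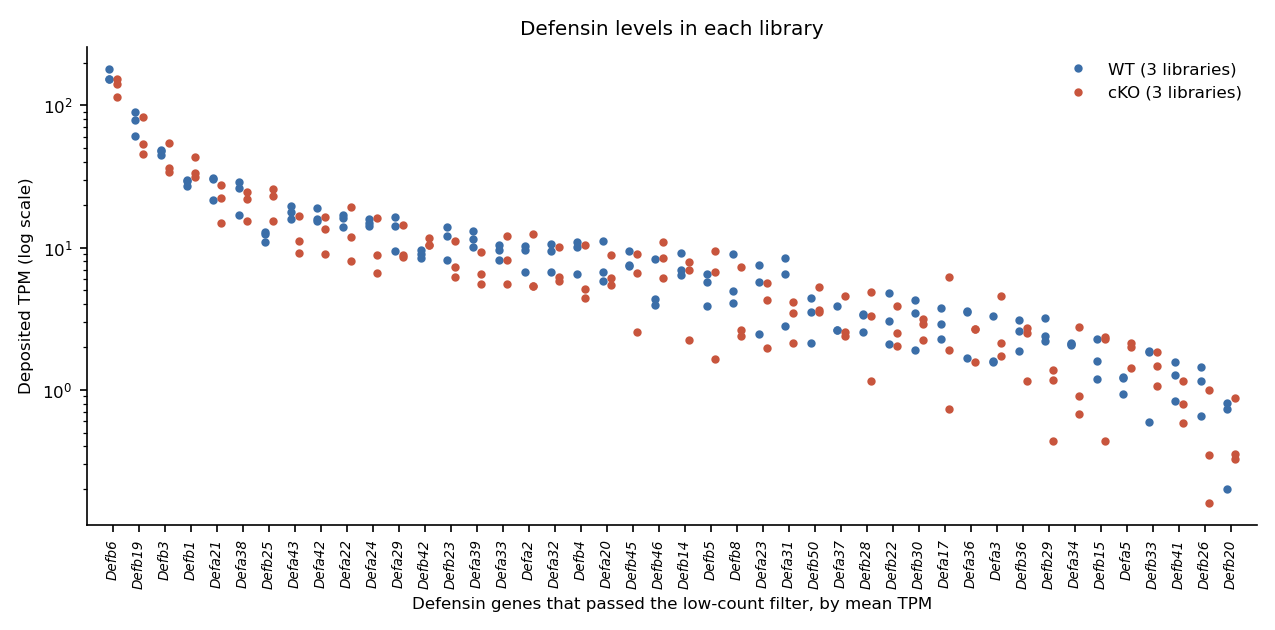
Deposited TPM (y axis, log scale) of the 44 defensin genes that passed the low-count filter, ordered by mean, with 1 point per library in WT (blue) and cKO (red). Levels run from above 100 TPM for Defb6 to below 1 TPM, and the 2 groups overlap for most genes.

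Summed over the 70 genes, defensins made up 108, 132 and 128 CPM of the library total in WT and 93.2, 92.6 and 134 in cKO. The cKO mean was 0.868 of the WT mean, and the groups overlapped because cKO library 3 was the highest of all 6. Alpha defensins summed to 31.6, 43.9 and 44.5 CPM in WT and 26.3, 23.4 and 42.3 in cKO, and beta defensins to 76.4, 88.1 and 83.6 and 66.9, 69.2 and 91.3. The cKO libraries fell into a low pair and a single library at the WT level in both families. In these bulk samples, fewer cells that express a gene and less RNA per cell cannot be told apart.

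The comparison of cKO with WT asks whether loss of p53 alters these genes. No defensin gene passed the threshold: of the 44 genes tested (20 alpha, 24 beta), 0 were higher and 0 lower at an edgeR adjusted p under 0.05. Over all 28543 genes tested 17 were called, which is 0.0596%, with 0.0245% higher and 0.0350% lower. At that rate a count of 0 among 44 genes does not set the defensins apart. At an unadjusted edgeR p under 0.05 there were 4 genes, 1 higher and 3 lower in cKO, where the background over all genes was 8.51%, with 4.28% higher and 4.23% lower. DESeq2 called 0 and gave no adjusted p for 22 of the 44, and it also had 4 at an unadjusted p under 0.05, where its share over all genes was 8.04%.

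Defb25 had the smallest p. It had 73, 81 and 70 counts in WT and 139, 89 and 169 in cKO, so every cKO library was above every WT library. Its log2 fold change was 0.80 (SE 0.261) with an edgeR adjusted p = 0.412. The other genes at an unadjusted p under 0.05 were lower in cKO. Defb29, an epididymal defensin, had 22, 22 and 32 counts in WT against 13, 4 and 12 in cKO (its log2 fold change was −1.39, SE 0.551, edgeR adjusted p = 0.522), without overlap. Defa39 had 101, 142 and 127 counts in WT and 57, 65 and 105 in cKO, whose ranges overlap before scaling by library and do not after it (−0.72, SE 0.270, edgeR adjusted p = 0.493). Defa43 was also lower (−0.55, SE 0.245, edgeR adjusted p = 0.579), with cKO library 3 inside the WT range.

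The groups did not overlap in scaled CPM for 6 of the 44 genes, where the background over all genes was 14.4%. They were Defa39 and Defb29, lower in cKO, and Defb25, Defb1, Defb42 and Defa5, higher in cKO (background 7.28% lower and 7.14% higher). Defb1 had a mean of 11.2 ± 0.470 CPM in WT, against 13.8 ± 2.70 in cKO (SD, n = 3 each, log2 fold change 0.31, SE 0.150, edgeR adjusted p = 0.620). Defb42 had 9.75 ± 0.556 CPM against 11.5 ± 0.687 (0.23, SE 0.131, edgeR adjusted p = 0.682). Defa5 had 7, 10 and 10 counts in WT and 11, 15 and 18 in cKO (0.69, SE 0.565, edgeR adjusted p = 0.799). Its near copy Defa34, with which it shares 74.7% of its 100-base words, stood on the other side of 0 (−0.54, SE 0.625, edgeR adjusted p = 0.870). How reads fell between these 2 genes is not known. None of the 6 passed the threshold.

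The other genes of high level did not pass the threshold either. Defb6 had 23.4 ± 2.85 CPM in WT against 19.2 ± 2.94 in cKO (a log2 difference of −0.28, SE 0.137, edgeR adjusted p = 0.611) and Defb19 from 13.4 ± 2.89 to 10.4 ± 3.57 (−0.37, SE 0.233, edgeR adjusted p = 0.718). Defb3 stood at −0.19 (SE 0.207), Defa21 at −0.38 (SE 0.246), Defa38 at −0.25 (SE 0.256) and Defa42 at −0.39 (SE 0.243). Defa22, Defa24 and Defa29 stood at −0.29 (SE 0.295), −0.53 (SE 0.307) and −0.35 (SE 0.285).

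Of the 44 genes, 35 had a log2 fold change below 0 (17 of 20 alpha, 18 of 24 beta) and their median was −0.28, where the median over all genes tested was −0.0053 and 49.0% lay above 0. These genes are not separate observations, since many alpha genes are near copies in sequence. The lowest of the 6 libraries was cKO library 2 for 19 genes and cKO library 1 for 13, while the highest was cKO library 3 for 14 and WT library 2 for 12. Over all 28543 genes tested, cKO library 2 was the lowest for 4905 and cKO library 1 for 5166. There cKO library 3 was the highest for 5049 and WT library 2 for 4735. Without cKO library 3 the median was −0.51 and 15 of 45 genes had an unadjusted p under 0.05, where the share over all genes in the same fit was 10.8%. Without cKO library 2 the median was −0.15 with 3 of 47 genes (5.96% over all genes), and without cKO library 1 it was −0.21 with 3 of 46 (8.34%). Leaving out WT library 1 gave 8 of 47 (9.25%), WT library 2 gave 2 of 46 (6.81%) and WT library 3 gave 2 of 45 (5.05%). No defensin passed the adjusted threshold in any of these fits.

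The median spread between libraries was close to that of genes of the same level. Their median biological coefficient of variation, edgeR's estimate of the spread beyond that of independent counts, was 0.319. It was 0.299 for genes of the same level by edgeR's trend and 0.161 over all genes tested. Because mates were counted singly, part of this spread can be counting error. The coefficient was above the trend in 30 of the 44 genes (68.2%), where the share over all genes tested was 32.8%. Of the 30, 15 were alpha genes, many of which are near copies and not separate observations.

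**Figure D4:**
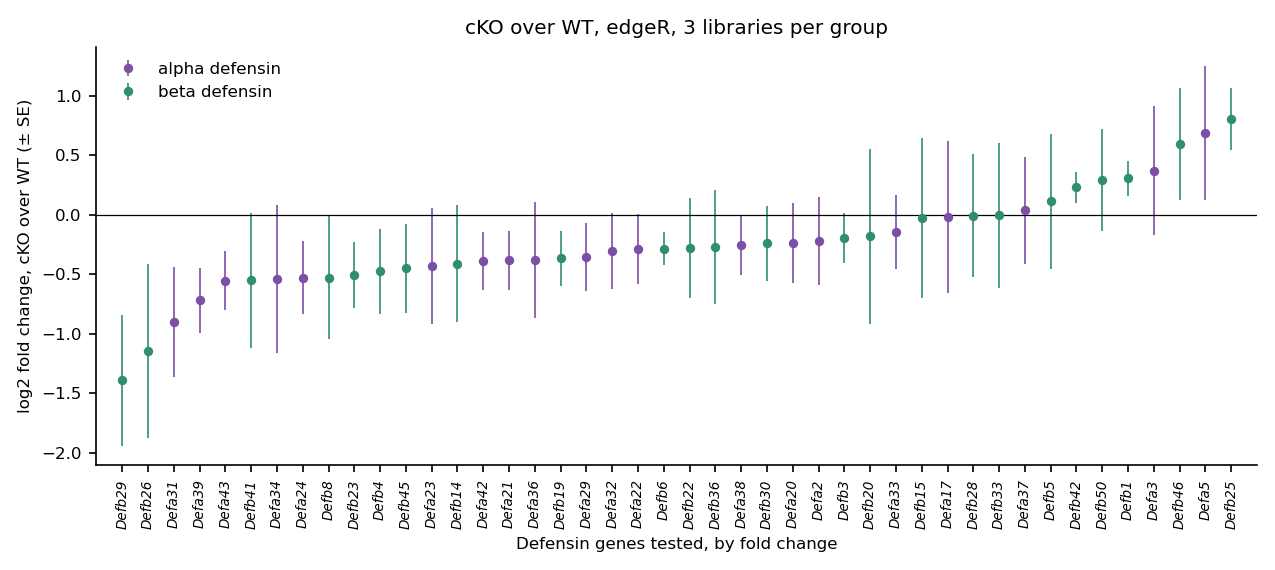
Log2 fold change of cKO over WT with its standard error (y axis) for the 44 defensin genes tested with edgeR, ordered by value, alpha genes in purple and beta genes in green, 3 libraries per group. Values run from −1.39 for Defb29 to 0.80 for Defb25, 35 are below 0, and none passed the threshold.

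A list of genes that Paneth cells express with alpha defensins is given beside them. Of the 26 genes of this list 25 were tested, 0 passed the threshold in either direction, 16 were above 0 and the median log2 fold change was 0.11. They summed to 1663, 1995 and 1733 CPM in WT and 2276, 2575 and 2313 in cKO, without overlap and with cKO library 2 the highest. The sum was carried by Reg3g, an antimicrobial lectin, at 815 ± 110 CPM in WT against 1206 ± 158 in cKO (SD, n = 3 each, with a log2 fold change of 0.57, SE 0.112, edgeR adjusted p = 0.147), and by Lyz1, the Paneth cell lysozyme, at 458 ± 48.9 and 604 ± 84.6 (0.40, SE 0.108, edgeR adjusted p = 0.310). Reg3b, a lectin of the same family, went from 51.9 ± 3.41 to 72.1 ± 8.37 CPM (0.47, SE 0.101, edgeR adjusted p = 0.178), and the zinc transporter gene Slc30a2 from 121 ± 9.80 to 143 ± 7.52 (0.23, SE 0.0846, edgeR adjusted p = 0.470). Mmp7, whose protease activates alpha defensins in mice, was at 37.0 ± 12.3 and 49.4 ± 12.7 CPM, and the goblet cell mucin Muc2 at 19.7 ± 3.10 and 12.4 ± 1.82 (−0.67, SE 0.150, edgeR adjusted p = 0.203). DESeq2 called Reg3g (adjusted p = 0.00269), Reg3b (0.0126) and Muc2 (0.00900), and edgeR with no filter called these 3 and Lyz1 (0.0195), so the count of 0 for this list holds for the main fit and not for those settings. Mmp7 and Muc2 were named after their values were seen. No difference in fold change between this list and the alpha defensins was tested.

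The epididymis is the other main site of beta defensins. Genes of the epididymis and sperm summed to 58.3, 72.0 and 69.8 CPM in WT and 46.2, 52.7 and 79.8 in cKO, with cKO libraries 1 and 2 the lowest and cKO library 3 the highest. Of 28 genes 21 were tested, 0 passed in either direction, 16 were below 0 and the median was −0.32. The most abundant were Lcn10 (12.6 ± 1.84 CPM in WT, 10.1 ± 3.44 in cKO), Crisp1 (9.06 ± 1.66 and 10.2 ± 3.798) and Sult1e1 (7.76 ± 3.27 and 6.23 ± 2.01), a lipocalin, a sperm-coating protein and a sulfotransferase. The smallest p belonged to Rnase13 (log2 fold change −1.61, SE 0.625, edgeR adjusted p = 0.511) and Lcn8 (−0.50, SE 0.215, edgeR adjusted p = 0.560).

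**Figure D5:**
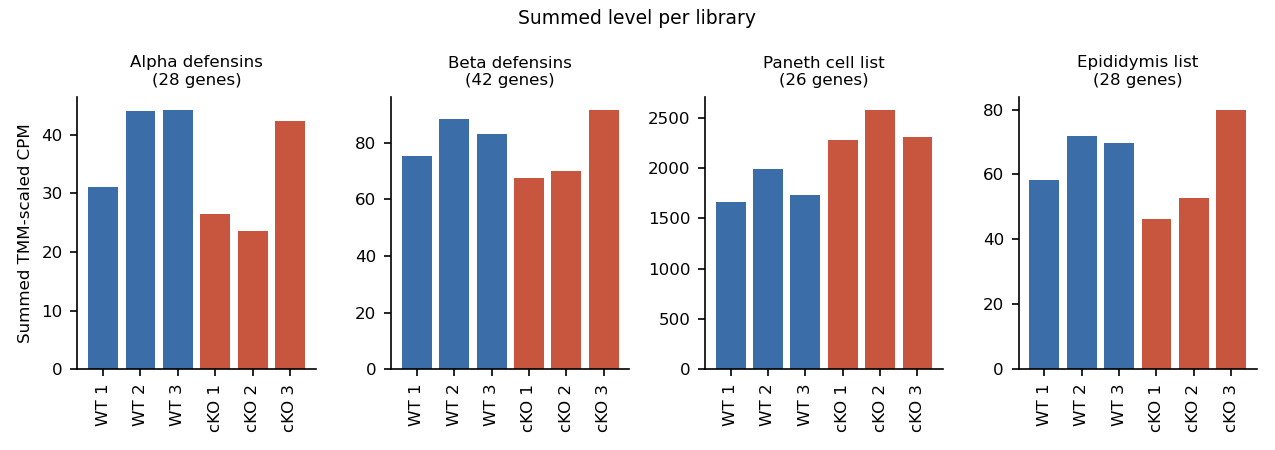
Summed TMM-scaled CPM in each library for the alpha defensins, the beta defensins, the Paneth cell list and the epididymis list, WT in blue and cKO in red, with each y axis starting at 0. cKO libraries 1 and 2 are the lowest for both defensin families and the epididymis list, while all cKO libraries are above all WT libraries for the Paneth cell list.

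Other antimicrobial peptides of epithelia had a median of 0.0075 over 22 genes tested, with 0 past the threshold in edgeR and in DESeq2. Lyz2, the lysozyme of macrophages, was at 530 ± 85.8 CPM in WT and 668 ± 144 in cKO, the peptidoglycan amidase gene Pglyrp2 at 281 ± 44.0 and 283 ± 38.5, and the airway gene Bpifa1 at 174 ± 30.3 and 246 ± 62.7. Ccl20, a chemokine that shares the receptor CCR6 with beta defensins, was at 161 ± 26.7 and 215 ± 28.04 (a log2 difference of 0.41, SE 0.126, edgeR adjusted p = 0.394), and S100a7a at 9.80 ± 1.81 and 6.90 ± 1.30 (−0.51, SE 0.185, edgeR adjusted p = 0.479).

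Receptors of defensins and genes that induce them all passed the low-count filter, with a median of 0.16 over 24 genes, 18 above 0 and 0 past the threshold. The most abundant were Vdr, the vitamin D receptor, at 181 ± 1.97 CPM in WT and 209 ± 5.30 in cKO (a log2 difference of 0.21, SE 0.0712, edgeR adjusted p = 0.451), Nfkb1 at 154 ± 0.410 and 150 ± 8.69, and Il1r1, the interleukin 1 receptor, at 97.5 ± 1.62 and 119 ± 9.19 (0.28, SE 0.0818, edgeR adjusted p = 0.343). Ccr6 itself was at 15.6 ± 1.17 and 16.4 ± 1.24 CPM, named after its values were seen. The pattern recognition gene Nod2 is on this list and the Paneth cell list.

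The markers of other cells had 0 genes past the threshold in each list, in edgeR and in DESeq2, and with no filter edgeR called the haemoglobin gene Hba-a2 lower in cKO (log2 fold change −0.61, adjusted p = 0.0491). Their medians were −0.12 for 10 thymocyte genes, −0.11 for 7 B cell genes, −0.16 for 11 myeloid and neutrophil genes tested, −0.08 for 8 fibroblast and endothelial genes and −0.35 for 6 erythroid genes, and −0.01 for the 15 genes of mature medullary epithelium. The erythroid genes summed to 73.5, 77.6 and 81.4 CPM in WT and 58.7, 49.6 and 72.5 in cKO, without overlap and with cKO libraries 1 and 2 the lowest, and the thymocyte genes to 65.0 to 129 CPM in WT and 65.5 to 120 in cKO. None of the listed markers was at 0 in all libraries. Their part in the defensin values was not tested.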

How the data were processed

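The build mm10 and the tools TopHat2 2.1.1, SAMtools 1.9 and Subread 2.0.1 are named per the submitters' processing notes. Per the file headers, the authors made the deposited counts with featureCounts 2.0.0 on Ensembl release 99 (GRCm38), over exons by gene, without strand, counting each mate of a pair singly and not using the option for reads with several alignments. The deposited series table repeats these counts for 51810 of 55385 genes and adds TPM made by the authors, and 2.03% to 2.49% of counts lie outside it. Because mates were counted singly, 1 fragment can give 2 counts.

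Counts of all genes were tested with edgeR 4.0.16 in R 4.3.3 (TMM scaling, filterByExpr, robust quasi-likelihood F test), with Benjamini-Hochberg adjustment over the 28543 genes that passed the filter, called under 0.05 at any fold size. Each log2 fold change sets cKO against WT, and its standard error was taken from F. The script was tested on simulated data. Alternatives were DESeq2 1.42.0, limma-voom (limma 3.58.1), other scalings and filters, the series table's counts, a replicate block and leaving out each library. Coding sequences and shared words came from GENCODE M21 and promoters from RefSeq GRCm38.p6, with identity computed by global alignment in Biopython 1.88. Word sharing describes annotated transcripts and does not measure misplaced reads.

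The members and the gene lists were chosen with earlier results of these data known. The lists are genes expressed with alpha defensins in Paneth cells, epididymis and sperm genes, other antimicrobial peptides, receptors and inducers of defensins, mature medullary epithelium, and markers of thymocytes, B cells, myeloid cells and neutrophils, fibroblasts and endothelium, and erythroid cells. Values are named for every defensin that passed the filter and for the 12 of highest mean TPM. In the 4 lists tied to defensins they are named for the 3 genes of highest mean CPM and the 2 of smallest p. Marker lists are given by medians and sums. Aire, H2-Aa, Ly6g and Elane were named from them outside this rule, and Hba-a2 because alternative settings called it. Summed levels and numbers detected were not tested.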

Additional observations from a re-analysis of the deposited data

How the results depend on the processing

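No defensin passed the threshold under any of the 14 other settings, and the smallest adjusted p among them was 0.224, for Defb25 with the replicate block. The count of all genes called was 17 and became 177 with DESeq2, 160 with no filter and 203 with the replicate block, and lay between 6 and 16 when a library was left out (7 without WT library 1, 6 without WT library 3, 7 without cKO library 2). The cause was not tested. The labels do not say whether same-numbered libraries are pairs, and pairing was not tested. Deviations of same-numbered libraries correlated at 0.113, 0.0544 and 0.0755, and each library correlated best with its own number. With the block, 8 of 44 defensins had an unadjusted p under 0.05 (11.8% of all genes in that fit), and with no filter 10 of 69 (7.16%). The block also called Reg3g (adjusted p = 0.00132), Reg3b (0.0204), Muc2 (0.0102) and Lyz1 (0.0430) of the Paneth cell list, Bpifa1 (0.00439) and Ccl20 (0.0139) of the other antimicrobial peptides and Hba-a2 (0.0221) of the erythroid markers, and leaving out cKO library 3 called Retnlb of the Paneth cell list (0.0462), all with edgeR. The number detected (cKO minus WT, −4) lay between −5.33 and −2.67 over the other measures of detection, with all libraries kept. The ratio of summed levels (0.868) lay between 0.757 without cKO library 3 and 0.924 without cKO library 2, with TPM at 0.864.

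Of the 44 defensins, 32 kept the sign of their fold change in every setting that tested them and 12 did not, none of them called in any. The filter of 1 CPM in 3 libraries tested only 23 defensins. Outside leaving out a library, Defa37 (0.04) became −0.0032 with limma-voom and −0.00031 with the replicate block, Defb5 (0.11) became −0.17 and −0.066, and Defb33 (−0.0050) became 0.13 and 0.071, and 0.00078 with DESeq2. When a library was left out, the log2 fold change lay between −1.21 and 0.44 for Defa17, −0.49 and 0.10 for Defa20, −0.20 and 0.84 for Defa3, −0.48 and 0.10 for Defa33, −0.35 and 0.25 for Defa37, −0.36 and 0.42 for Defb15, −0.76 and 0.10 for Defb20, −0.61 and 0.11 for Defb22, −0.51 and 0.39 for Defb28, −0.38 and 0.24 for Defb33, −0.47 and 0.029 for Defb36, and −0.37 and 0.56 for Defb5. The number of counts limits the precision of genes near the floor of 3 counts.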

Other observations

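The count files hold 18 further defensin symbols that the numbered pattern leaves out, all of them pseudogenes by symbol and none in the series table. The 3 with the most counts over the 6 libraries were Defa-ps7 with 74, Defa-ps18 with 46 and Defa-ps1 with 44, and 3 had 0. Defa-ps7 had 7, 19 and 10 counts in WT and 14, 15 and 9 in cKO, which overlap. Defa-ps18 is the gene with which Defa25 and Defa28 shared the most 100-base words, 45.6% and 40.2%.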
